A study of Mus musculus with 18 samples.

Results

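The genes described here are 10 genes whose proteins coat the lipid droplet or control its growth and breakdown: the perilipins Plin1, Plin2, Plin3, Plin4 and Plin5, the fusion factor Cidec, the ATGL inhibitors G0s2 and Hilpda, and Bscl2 and Fitm2, which act where droplets form. They were chosen by name, for their known role, from a table of 20295 genes, with earlier results of these data known. Counts of them set beside the share of all genes are therefore a description. All 10 were among the 12156 genes that passed the filter on low counts and were tested. Counts were measured by RNA-seq in BAT-LgT cells, a single wild-type line of mouse brown fat precursors that carries SV40 large T antigen and had been differentiated for use on day 7. Vehicle cells received DMSO for 3 h, ISO cells the β-adrenergic agonist isoproterenol at 100 nM for 3 h, and SR-3420 cells the ABHD5 ligand of that name for 3 h at 10 µM according to the labels. The text of the study gives another dose for SR-3420, and which of them applies was not settled. The other 3 groups had 1 h with an ATGL inhibitor and an HSL inhibitor before the same agents and are called Lipase Inh. + Vehicle, Lipase Inh. + ISO and, for the ABHD5 ligand, Lipase Inh. + SR-3420, and each of the 6 groups had 3 samples.

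A lipid droplet is a core of neutral lipid under a single layer of phospholipid, and the proteins on that layer decide which enzymes reach the core. In unstimulated adipocytes perilipin 1 holds ABHD5, the co-activator of the lipase ATGL; a β-adrenergic signal or an ABHD5 ligand frees it, ATGL and HSL then release fatty acids, and G0S2 and HILPDA bind ATGL and inhibit it. Several of these genes are known targets of the PPAR receptors, which fatty acids can activate. Dependence on these receptors was not tested here.

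Total counts lay between 10310447 and 21205032 in 17 libraries, while Lipase Inh. + SR-3420 replicate 2 held 4263755, of which the gene Lars2 took 18.3%. Fold changes, medians and sums of the 10 genes that rest on this library are given with and without it for the main fit. Fits with other scaling, filters or models, total counts alone among them, kept this library and were not repeated without it. All 8 adipocyte markers, which include Plin1 and Cidec themselves, were measured and their summed level lay between 19761 and 35854 CPM, highest in Lipase Inh. + ISO. Lpl made up much of this sum, at 7679 to 24868 CPM over all samples, and no other of the 8 exceeded 4451 CPM. Of 8 brown adipocyte markers 6 passed the filter; Ucp1 ranged from 1.39 to 789 CPM, whereas Dio2 (at most 0.416 CPM) and Zic1 (at most 0.533 CPM) were near 0. The summed level of 6 preadipocyte or fibroblast markers was 194 to 244 CPM in Vehicle, 237 to 270 CPM in ISO and 297 to 300.2 CPM in SR-3420, and its part in the results was not tested. Summed markers stayed at or below 6.30 CPM for macrophages, 0.631 CPM for endothelium and 1.67 CPM for muscle, with Ptprc and Myf5 at 0. In bulk RNA, fewer cells of a type and less RNA per cell cannot be told apart.

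In Vehicle, the levels of the 10 genes spanned a wide range once divided by length. CPM (counts scaled to the size of the library, after TMM correction) per kb of counted length ran from Cidec at 718 ± 69.6 (SD, n = 3) through Plin4 (518 ± 48.5), Plin1 (410 ± 74.7), G0s2 (403 ± 96.4), Fitm2 (277 ± 16.2), Plin2 (169 ± 15.8), Bscl2 (52.3 ± 5.24), Plin3 (43.1 ± 5.72) and Hilpda (18.3 ± 3.82) to Plin5 (8.20 ± 2.22). Among neighbours in this order, the sample ranges of Plin4 and Plin1, of Plin1 and G0s2, and of G0s2 and Fitm2 overlapped, and the other neighbours did not overlap. With ISO, Plin2 moved from rank 6 to rank 2, and with SR-3420, G0s2 moved from rank 4 to rank 1. Plin5 stayed at rank 10 in all 6 groups, with 61 to 368 raw counts per library.

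**Figure D1:**
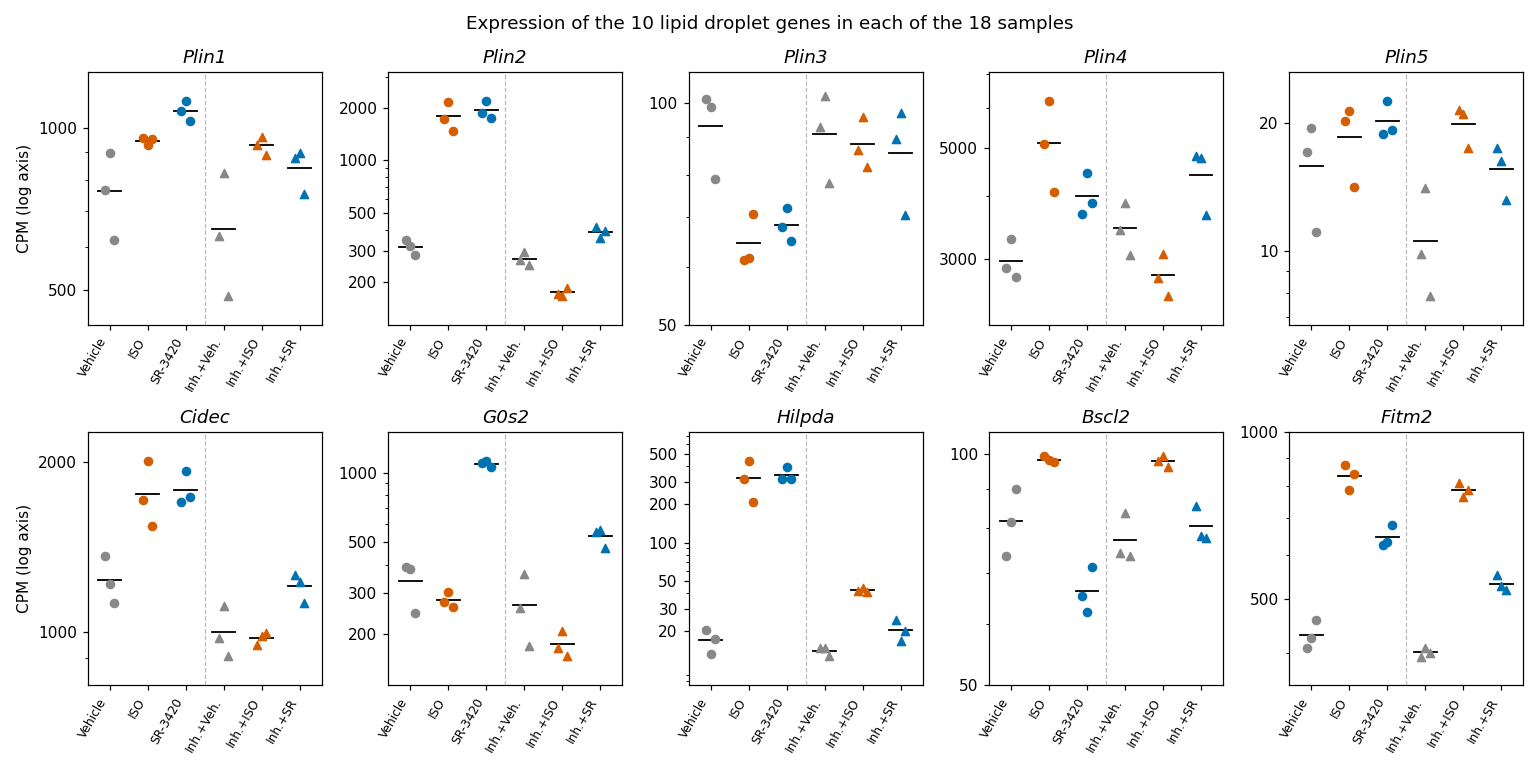
Level of each of the 10 genes in every sample, as CPM on a logarithmic axis whose range differs between panels; grey marks Vehicle, orange ISO and blue SR-3420, circles stand for no inhibitor and triangles for lipase inhibitors, and each black line is a group mean of 3 samples. Plin2 and Hilpda lie higher in the 6 ISO and SR-3420 samples without inhibitors than in any of the other 12 samples, whereas G0s2 is highest with SR-3420, at 1063 to 1120 CPM.

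The first comparison asked which coat and regulator genes responded to β-adrenergic stimulation. With ISO against Vehicle, 6 of the 10 genes rose and 1 fell by edgeR's quasi-likelihood test (adjusted p of at most 0.05), where 26.8% of all genes tested rose and 25.0% fell. Hilpda and Plin2 rose at least 2-fold, as did 5.03% of all genes, and none of the 10 fell 2-fold, as 4.07% of all genes did. Fitm2, Plin4, Cidec and Bscl2 rose by less, Plin3 fell, and Plin1, Plin5 and G0s2 did not pass the test. The median log2 fold change of the 10 genes was 0.41, beside -0.02 over all genes. Scaling by total counts alone in place of TMM shifted the log2 changes with ISO by a median of -0.31 over all genes. The counts and the median with ISO therefore depend on the scaling.

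With SR-3420, which acts on ABHD5 without a β-adrenergic signal, 7 of the 10 genes rose and 2 fell, beside 26.0% and 25.4% of all genes. Hilpda, Plin2 and G0s2 rose at least 2-fold, as 3.97% of all genes did, and none fell 2-fold (2.37% of all genes). The median log2 fold change was 0.51 for the 10 genes and -0.02 for all. ISO and SR-3420 were compared with the same 3 Vehicle samples, so the fold changes of both share their controls.

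Lipase inhibitors alone moved none of the 10 genes past the threshold against Vehicle, where 0.485% of all genes rose and 0.428% fell. Their median log2 fold change was -0.23, beside -0.0017 over all genes. By edgeR, 2 of them had an unadjusted p under 0.05, Plin5 with -0.61 ± 0.20 (SE) on the log2 scale (adjusted p = 0.208) and Cidec at -0.31 ± 0.09 (adjusted p = 0.153). DESeq2 called 1 of the 10 (Cidec, adjusted p = 0.0462), and the share of all genes that DESeq2 called was not computed. The Cidec levels without and with the inhibitors did not overlap, at 1363, 1218 and 1125 CPM in Vehicle and 976, 1112 and 907 CPM in Lipase Inh. + Vehicle.

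Under the inhibitors the ISO response took another form. Lipase Inh. + ISO against Lipase Inh. + Vehicle raised 5 genes (Hilpda, Fitm2, Plin5, Plin1 and Bscl2) and lowered 2 (Plin2 and G0s2), beside 29.4% and 28.3% of all genes, with a median of 0.15 beside -0.01. Hilpda was the only one of the 10 past 2-fold, upward, as were 5.43% of all genes, and 7.63% of all genes fell 2-fold. The SR-3420 response under the inhibitors held 3 genes that rose, G0s2, Plin2 and Fitm2, and none that fell, beside 2.99% and 1.36% of all genes, with a median of 0.40 (0.38 without the low library) beside 0.0025. The counts of 3 and 0 were the same without the low library. An interaction, the log2 change with inhibitors minus that without, was called for 5 genes with ISO (4 lower, 1 higher, beside 16.6% and 14.9% of all genes) and for 4 genes with SR-3420 (3 lower, 1 higher, beside 14.8% and 12.5%), and the medians were -0.13 and -0.14 (the latter -0.16 without the low library), beside 0.01 over all genes in each.

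**Figure D2:**
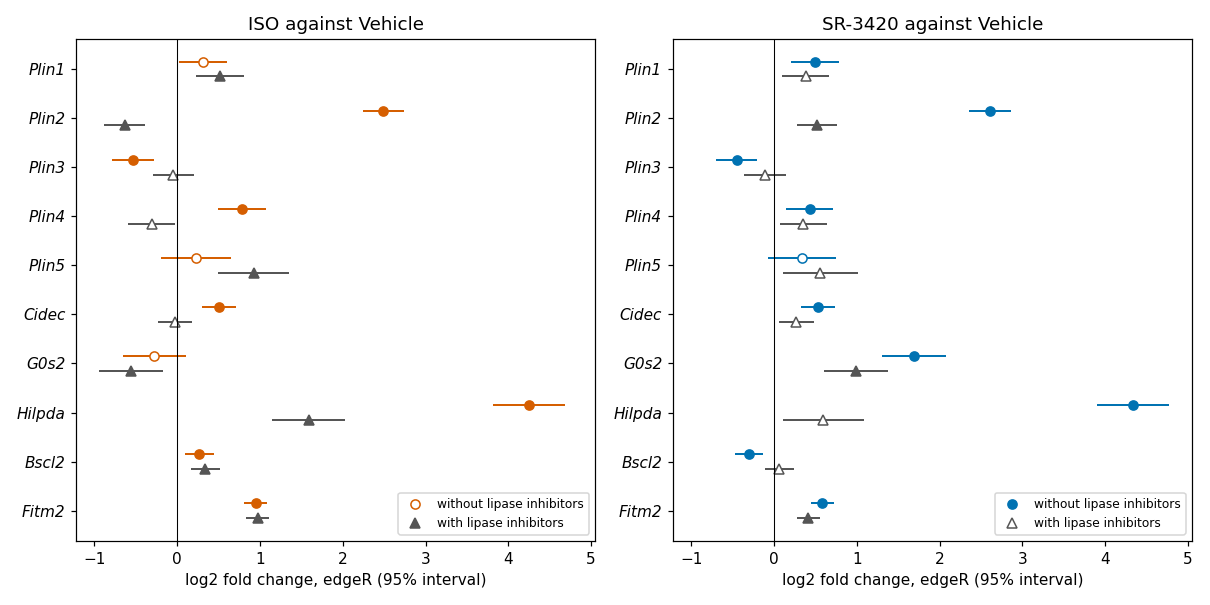
Log2 fold change of each gene for ISO (left) and SR-3420 (right) against the matching Vehicle group, without inhibitors (coloured circles) and with inhibitors (grey triangles); bars are 95% intervals of the edgeR fit and filled symbols have an adjusted p of at most 0.05. Plin2 goes from 2.49 to -0.64 with ISO, while Fitm2 lies at 0.95 and 0.97.

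Plin2 encodes the perilipin found on droplets of most cell types and is a known PPAR target. Its level in Vehicle was 347, 320 and 287 CPM. ISO samples held 1728, 2161 and 1484 CPM and SR-3420 samples 1871, 2192 and 1759 CPM, so that every stimulated sample lay above every Vehicle sample and the stimulated groups overlapped each other. The log2 fold change was 2.49 ± 0.12 with ISO (5.62-fold, adjusted p = 1.43e-13) and 2.61 ± 0.12 with SR-3420 (6.09-fold, adjusted p = 1.56e-13), and their difference was -0.12 with a 95% interval from -0.34 to 0.11.

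Under the inhibitors Plin2 lay at 268, 296 and 252 CPM with Vehicle, at 172, 167 and 186 CPM with ISO and at 413, 357 and 393 CPM with SR-3420. These 3 groups did not overlap: ISO was below its control and SR-3420 above it. The log2 fold change with ISO was -0.64 ± 0.11 (adjusted p = 4.84e-05), which put the interaction at -3.13 ± 0.16 (adjusted p = 5.18e-12). With SR-3420 it was 0.52 ± 0.11 (adjusted p = 0.00758; 0.57 without the low library, adjusted p = 0.00984), and the interaction was -2.09 ± 0.16 (adjusted p = 6.22e-09; -2.04 without the low library). On total counts alone, with the low library kept, the SR-3420 effect under the inhibitors was 0.41 and missed the threshold (adjusted p = 0.0744).

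Hilpda encodes a small droplet protein that inhibits ATGL and is known as a hypoxia-induced gene. Its Vehicle samples held 20.2, 13.2 and 17.2 CPM. With ISO it reached 318, 439 and 210 CPM, and with SR-3420 it reached 318, 397 and 317 CPM, again with no overlap with Vehicle and full overlap of the stimulated groups. Hilpda had the largest log2 fold change of the 10 genes in both comparisons, 4.25 ± 0.20 with ISO (19.0-fold, adjusted p = 2.67e-13) and 4.34 ± 0.20 with SR-3420 (20.2-fold, adjusted p = 3.75e-13). The difference between them was -0.09 (95% interval from -0.44 to 0.26).

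The lipase inhibitors left part of the Hilpda response to ISO. Lipase Inh. + Vehicle samples lay at 14.7, 14.6 and 12.7 CPM and Lipase Inh. + ISO samples at 41.1, 43.9 and 40.7 CPM. This was a rise of 1.59 ± 0.21 on the log2 scale (3.00-fold, adjusted p = 1.15e-06), and the interaction was -2.66 ± 0.29 (adjusted p = 3.14e-07). Lipase Inh. + SR-3420 samples held 24.6, 16.8 and 19.9 CPM, each above its control group, but the log2 difference of 0.59 ± 0.23 did not pass the test (adjusted p = 0.181; 0.67 with adjusted p = 0.178 without the low library). The SR-3420 interaction for Hilpda was -3.74 ± 0.30 (adjusted p = 1.51e-08; -3.67 without the low library).

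G0s2, the other ATGL inhibitor of the list, separated the agents. Vehicle samples lay at 391, 382 and 246 CPM and ISO samples at 276, 303 and 261 CPM, and these groups overlapped. SR-3420 samples lay at 1101, 1120 and 1063 CPM, above every other sample of the experiment. The log2 fold change was -0.28 ± 0.18 with ISO (adjusted p = 0.200) and 1.69 ± 0.18 with SR-3420 (3.22-fold, adjusted p = 1.05e-07). Tested against each other, ISO lay below SR-3420 by -1.96 ± 0.18 on the log2 scale (adjusted p = 5.35e-08). On total counts alone the ISO difference became -0.59 and passed the test (adjusted p = 0.00486), as it did without Vehicle replicate 3 (-0.47, adjusted p = 0.0278).

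With the inhibitors present, G0s2 lay at 259, 364 and 178 CPM in Vehicle, 174, 207 and 161 CPM in ISO and 555, 566 and 470 CPM in SR-3420. The SR-3420 samples stood above both other groups, which overlapped. G0s2 fell with ISO by 0.56 ± 0.18 on the log2 scale (adjusted p = 0.0106), a call that was lost without Lipase Inh. + Vehicle replicate 2 (-0.27, adjusted p = 0.163) or without Lipase Inh. + ISO replicate 3 (adjusted p = 0.0559). It rose with SR-3420 by 0.99 ± 0.18 (adjusted p = 0.00157; 0.94 without the low library). The SR-3420 interaction of -0.70 ± 0.25 passed narrowly (adjusted p = 0.0428, and -0.74 with adjusted p = 0.0489 without the low library). It was called in 8 of 18 fits with 1 library removed. With the low library kept, it was called in neither DESeq2 (adjusted p = 0.0797) nor a fit on total counts (adjusted p = 0.0521).

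The bases before the annotated starts of Hilpda, Plin2 and G0s2 are shown because these 3 genes had the largest changes with SR-3420. Each line gives the 300 bases before the start in the table, 5′ to 3′ on the gene's strand, read from mm9.
Hilpda, chr6:29222188-29222487, plus strand: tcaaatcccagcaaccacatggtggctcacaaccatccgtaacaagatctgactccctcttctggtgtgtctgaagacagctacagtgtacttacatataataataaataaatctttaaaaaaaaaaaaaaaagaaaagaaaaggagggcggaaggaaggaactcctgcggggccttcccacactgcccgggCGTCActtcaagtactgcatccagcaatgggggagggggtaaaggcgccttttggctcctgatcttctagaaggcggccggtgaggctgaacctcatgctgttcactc
Plin2, chr4:86315964-86316263, minus strand: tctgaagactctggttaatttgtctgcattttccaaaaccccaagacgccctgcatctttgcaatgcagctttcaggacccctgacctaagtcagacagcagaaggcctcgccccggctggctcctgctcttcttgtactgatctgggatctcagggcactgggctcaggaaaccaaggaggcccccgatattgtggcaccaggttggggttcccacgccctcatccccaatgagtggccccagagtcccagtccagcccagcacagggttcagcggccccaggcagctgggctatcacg
G0s2, chr1:195099383-195099682, minus strand: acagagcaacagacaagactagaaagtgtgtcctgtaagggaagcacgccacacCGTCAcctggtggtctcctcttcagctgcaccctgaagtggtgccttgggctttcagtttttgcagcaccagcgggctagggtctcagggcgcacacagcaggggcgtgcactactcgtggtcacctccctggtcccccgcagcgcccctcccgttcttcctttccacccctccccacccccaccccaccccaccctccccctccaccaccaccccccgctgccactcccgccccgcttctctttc
Capitals mark TGACG, the core of the cAMP response element, found here on the opposite strand as its complement, 108 to 104 bases before the start of Hilpda and 246 to 242 bases before that of G0s2. TGACG on either strand was present in this window in 2 of the 10 genes and in 23.3% of all 20295 genes. The E-box CACGTG, read on both strands, was present before 7.88% of all genes and none of the 10. The A form of the hypoxia element core, ACGTG, which the E-box contains, was present before 21.0% of all genes and none of the 10. The form GCGTG was not searched. The amino acid response motif TGATGNAA was present before 3.31% of all genes and none of the 10. A match is a string of letters and shows no binding.

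A DR1 element, the repeat that PPAR and RXR bind, was searched as 2 copies of AGGTCA in tandem with 1 base between, on both strands, in the 5 kb on each side of the start. It was present in 1 of the 10 genes, G0s2, and in 2.15% of all genes. With AGGNCA allowed for both copies it was present in 3 of the 10 genes, G0s2 and Plin4 among them, and in 16.9% of all genes. The match is printed 5′ to 3′ on the strand of the motif, with the motif in capitals and 5 bases on each side.
G0s2, chr1:195103005-195103017: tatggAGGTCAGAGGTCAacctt
It lies 3635 bases before the start of G0s2 in mm9, counted to the far end of the motif.

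Plin1, the perilipin that binds ABHD5 in adipocytes, and Plin5, which tethers droplets to mitochondria in oxidative cells, had the highest correlation of any pair compared that included either one (Pearson's r = 0.910 over the 18 samples, on log2 CPM). The genes compared were the tested genes whose log2 CPM averaged 3 or more. Plin1 held 768, 897 and 620 CPM in Vehicle, 958, 928 and 953 CPM in ISO and 1074, 1121 and 1030.0 CPM in SR-3420. Both stimulated groups lay above Vehicle without overlap. Plin1 rose with SR-3420 by 0.50 ± 0.13 on the log2 scale (adjusted p = 0.00357), whereas the ISO difference of 0.31 ± 0.13 missed the threshold (adjusted p = 0.0533; 0.0475 with DESeq2). On total counts alone almost nothing of this ISO difference remained, and it was not called. It was called in 3 of 18 fits with 1 library removed, and was 0.18 without Vehicle replicate 3 (adjusted p = 0.278).

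Under the inhibitors Plin1 was at 630, 825 and 487 CPM in Vehicle, 929, 963 and 890 CPM in ISO and 880, 897 and 753 CPM in SR-3420. The ISO samples lay above their control, and the SR-3420 samples overlapped it. Plin1 rose with ISO (0.52 ± 0.13, adjusted p = 0.00208; 0.30 and adjusted p = 0.0613 on total counts alone), and its interaction of 0.21 had a 95% interval from -0.18 to 0.60. With SR-3420 the difference was 0.38 ± 0.13 (adjusted p = 0.126; 0.34 without the low library).

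Plin5 levels were low, at 17.1, 19.5 and 11.1 CPM in Vehicle, 20.2, 21.4 and 14.2 CPM in ISO and 18.9, 22.5 and 19.3 CPM in SR-3420, with overlap between all 3 groups. Neither agent passed the test without inhibitors: the log2 difference was 0.23 ± 0.20 with ISO (-0.08 on total counts alone) and 0.34 ± 0.19 with SR-3420. Lipase Inh. + Vehicle samples held 9.84, 14.1 and 7.86 CPM and Lipase Inh. + ISO samples 21.4, 21.0 and 17.4 CPM. This rise of 0.92 ± 0.20 (1.89-fold, adjusted p = 0.000494) was without overlap, and the interaction of 0.69 ± 0.28 did not pass the test (adjusted p = 0.0655; 0.0357 on total counts alone). Lipase Inh. + SR-3420 samples held 17.5, 16.3 and 13.2 CPM and overlapped their control (0.56 ± 0.21, adjusted p = 0.174; 0.54 without the low library).

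Plin4, which coats small droplets of white adipocytes with an unusually long repeat region, stood between rank 1 and rank 4 of the 10 genes in CPM per kb in every group. It lay at 2876, 3293 and 2764 CPM in Vehicle, 5073, 6185 and 4072 CPM in ISO and 3688, 4454 and 3888 CPM in SR-3420. Both stimulated groups were above Vehicle and overlapped each other. The rise was 0.78 ± 0.13 with ISO (adjusted p = 4.00e-05) and 0.43 ± 0.13 with SR-3420 (adjusted p = 0.00970), the latter lost without SR-3420 replicate 2 (0.35, adjusted p = 0.0555) and on total counts alone (0.27, adjusted p = 0.0917).

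The inhibitors changed the Plin4 response to ISO and not detectably that to SR-3420. Lipase Inh. + Vehicle samples lay at 3430, 3872 and 3059 CPM, Lipase Inh. + ISO samples at 2759, 3073 and 2538 CPM and Lipase Inh. + SR-3420 samples at 4807, 4763 and 3672 CPM. Each stimulated group overlapped its control, and the stimulated groups did not overlap each other. The log2 difference with ISO was -0.31 ± 0.13 and just missed the threshold (adjusted p = 0.0507). It was called at about the same size without a filter (adjusted p = 0.0137), with only the groups compared (0.00766) and with DESeq2 (0.0420), at -0.53 on total counts alone (0.00134), and in 6 of 18 fits with 1 library removed. The interaction was -1.09 ± 0.19 (adjusted p = 0.000111). The SR-3420 interaction was -0.08 with a 95% interval from -0.46 to 0.31 (-0.13 without the low library). Plin4 and Plin5 are neighbours on chromosome 17, on the same strand with 1798 bases between their spans, and the end of Plin4 overlaps Hdgfrp2 on the other strand by 6 bases.

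Plin3, the perilipin that moves between cytosol and nascent droplets, fell with ISO and with SR-3420, where 25.0% and 25.4% of all genes fell. The share of all genes that fell with both was not computed. It lay at 101, 98.8 and 78.9 CPM in Vehicle, 61.3, 61.7 and 70.8 CPM in ISO and 67.8, 72.1 and 64.95 CPM in SR-3420, with both stimulated groups below Vehicle. The log2 change was -0.53 ± 0.12 with ISO (adjusted p = 0.000573) and -0.45 ± 0.11 with SR-3420 (adjusted p = 0.00243). Under the inhibitors the 3 groups overlapped between 70.6 and 102 CPM, and the ISO interaction of 0.49 ± 0.16 passed (adjusted p = 0.0261) but was lost in 6 of 18 fits with 1 library removed, among them those without Vehicle replicate 1 (adjusted p = 0.0765) and without Lipase Inh. + Vehicle replicate 3 (adjusted p = 0.0840).

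Summed over the 5 perilipins, mRNA was 1147 ± 136 CPM per kb in Vehicle (SD, n = 3), 2386 ± 358 in ISO and 2346 ± 208 in SR-3420. With the inhibitors the sums were 1140 ± 181 in Vehicle, 1127 ± 65.4 in ISO and 1474 ± 159 in SR-3420 (1292 and 1579 without the low library). Plin2 made up 14.8% ± 1.38 of this sum in Vehicle, 39.6% ± 1.66 in ISO and 43.8% ± 1.34 in SR-3420, against 8.24% ± 0.926 in Lipase Inh. + ISO. Plin1 and Plin4 together with small parts of Plin3 and Plin5 made up the rest, Plin1 ranging from 21.7% in ISO to 44.3% in Lipase Inh. + ISO and Plin4 from 29.7% in SR-3420 to 52.9% in Lipase Inh. + Vehicle.

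**Figure D3:**
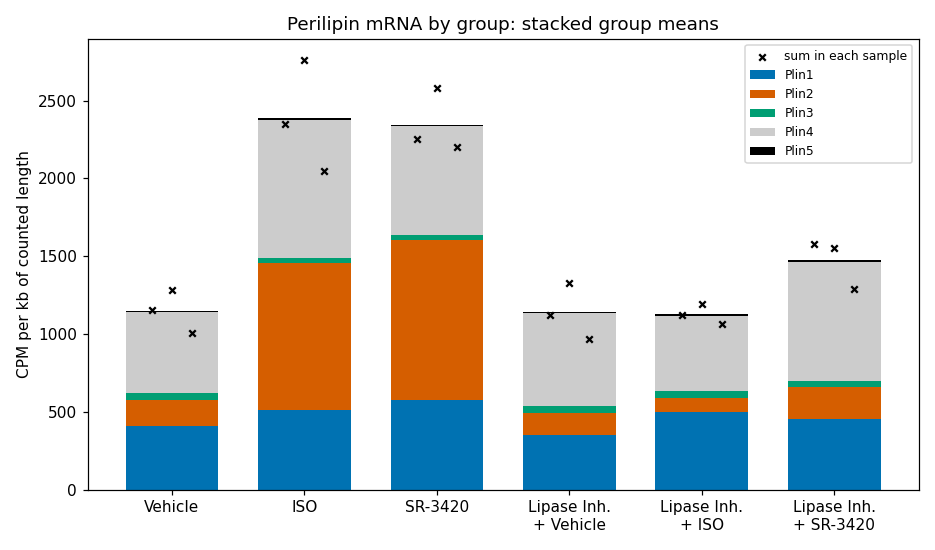
Perilipin mRNA in each group as stacked group means in CPM per kb of counted length, with a cross for the sum in each of the 3 samples. The sums of ISO and SR-3420 lie above those of the other 4 groups, and the Plin2 part is largest in them.

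Cidec, which joins droplets and lets lipid pass from the smaller to the larger, held 1716, 2005 and 1543 CPM with ISO and 1696, 1928 and 1736 CPM with SR-3420, above the Vehicle values given earlier. The log2 change was 0.51 ± 0.09 with ISO (adjusted p = 0.000105; 0.20 and adjusted p = 0.103 on total counts alone) and 0.53 ± 0.09 with SR-3420 (adjusted p = 6.83e-05). Lipase Inh. + ISO samples lay at 949, 985 and 995 CPM, within the range of their control, and Lipase Inh. + SR-3420 samples at 1262, 1227 and 1125 CPM, above it but short of the threshold (0.27 ± 0.09, adjusted p = 0.122; 0.26 without the low library). The interaction was -0.54 ± 0.13 with ISO (adjusted p = 0.00341) and -0.26 ± 0.13 with SR-3420 (adjusted p = 0.151; -0.27 without the low library).

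Fitm2, an endoplasmic reticulum protein needed for droplets to bud, responded to ISO by nearly the same amount with and without the inhibitors. It held 409, 426 and 458 CPM in Vehicle and 873, 786 and 840 CPM in ISO, then 394, 408 and 400 CPM in Lipase Inh. + Vehicle and 811, 764 and 785 CPM in Lipase Inh. + ISO. Neither pair of groups overlapped. The log2 change was 0.95 ± 0.06 (adjusted p = 2.83e-11) and 0.97 ± 0.06 (adjusted p = 1.19e-11), with an interaction of 0.02 and a 95% interval from -0.16 to 0.20.

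Fitm2 also rose with SR-3420, with and without the inhibitors. The samples lay at 626, 633 and 680 CPM without inhibitors and at 552, 529 and 519 CPM with them, each group above its control. The change was 0.58 ± 0.06 (adjusted p = 6.88e-08) and 0.41 ± 0.06 (adjusted p = 0.000206, and 0.42 without the low library). On total counts alone, with the low library kept, the latter was 0.30 and short of the threshold (adjusted p = 0.0529). Without inhibitors the direct difference of ISO over SR-3420 was 0.37 ± 0.06 (adjusted p = 0.000102).

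Bscl2, which encodes seipin at the contact of droplet and endoplasmic reticulum, moved in opposite directions with the 2 agents. It lay at 73.7, 81.5 and 90.1 CPM in Vehicle, 99.2, 98.0 and 97.6 CPM in ISO and 65.2, 62.2 and 71.2 CPM in SR-3420, and the 3 groups did not overlap. The log2 change was 0.27 ± 0.08 with ISO (adjusted p = 0.00560) and -0.30 ± 0.08 with SR-3420 (adjusted p = 0.00267). ISO lay above SR-3420 by 0.57 ± 0.08 (adjusted p = 1.01e-05). On total counts alone, which shift the median of all genes by -0.31 with ISO, the ISO change of Bscl2 was -0.04 and not called.

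With the inhibitors Bscl2 held 74.3, 83.8 and 73.7 CPM in Vehicle, 97.9, 99.4 and 96.1 CPM in ISO and 85.6, 78.1 and 77.8 CPM in SR-3420. Only the ISO samples lay apart from their control (0.34 ± 0.08, adjusted p = 0.000621; 0.12 and adjusted p = 0.302 on total counts alone). The SR-3420 interaction was 0.36 ± 0.11 (adjusted p = 0.0174; 0.38 without the low library), lost without Lipase Inh. + SR-3420 replicate 1 (adjusted p = 0.0556). The span of Bscl2 overlaps Gng3 on the other strand by 1780 bases, and since the use of strand in counting is not given in the sources used here, reads of both cannot be told apart there.

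**Figure D4:**
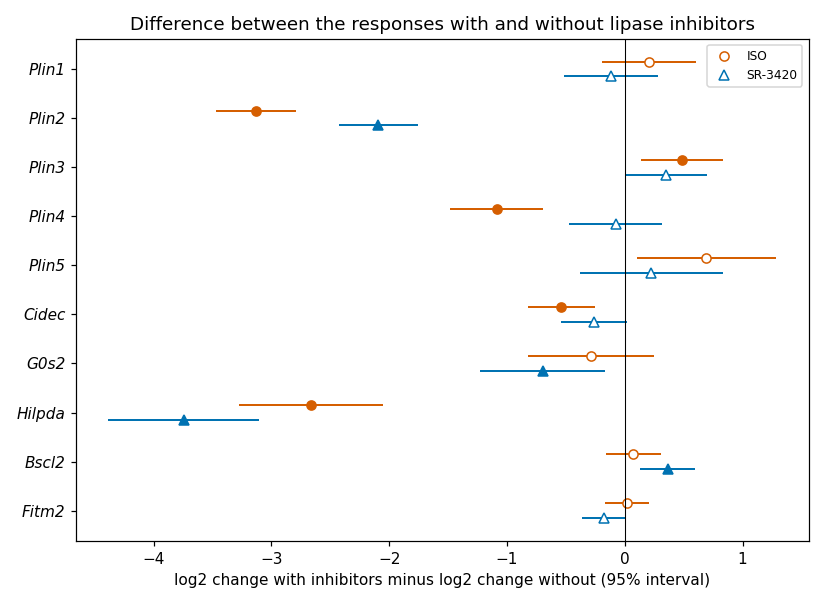
Interaction of each gene with the lipase inhibitors for ISO (orange circles) and SR-3420 (blue triangles), as the log2 change with inhibitors minus that without, with 95% intervals of the edgeR fit; filled symbols have an adjusted p of at most 0.05. Plin2 (-3.13 and -2.09) and Hilpda (-2.66 and -3.74) lie far to the left, and Plin4 differs from 0 with ISO only.

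Set directly against each other, ISO and SR-3420 differed for 4 of the 10 genes: Bscl2, Fitm2 and Plin4 were higher with ISO and G0s2 was higher with SR-3420, where 15.8% of all genes were higher and 13.9% lower with ISO. The Plin4 difference of 0.35 ± 0.13 stood at an adjusted p of 0.0498 and was called in 6 of 18 fits with 1 library removed. Total counts alone gave 0.20 for it (adjusted p = 0.258). For the other 6 genes a p above the threshold does not show that the agents act alike, and the widest interval was that of Plin5, from -0.51 to 0.29.

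Likeness to other tested genes was measured by Pearson's r of log2 CPM over the 18 samples, among genes whose log2 CPM averaged 3 or more. Since all samples share 6 treatments, any gene with the same response scores high. Cidec was most like Derl1 (r = 0.968). Hilpda was most like Pvr (0.988), followed by the stress-induced factor Atf3 (0.986) and the tRNA synthetase gene Nars (0.985). Plin4 was most like Ppargc1b, a co-activator of mitochondrial genes (0.934), G0s2 like Cspg4 (0.957), Fitm2 like Bcl2l13 (0.982), Plin3 like Suv420h2 (0.932) and Bscl2 like Bre (0.925).

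Of 25 further genes of lipid droplet proteins and lipases, 23 were tested and Fitm1 and Hsd17b13 were below the filter. With ISO, 10 of the 23 rose and 6 fell, beside 26.8% and 25.0% of all genes, and with SR-3420, 4 rose and 8 fell, beside 26.0% and 25.4%. Under the inhibitors 11 rose and 8 fell with ISO (29.4% and 28.3% of all genes), while 3 rose and 2 fell with SR-3420 (2.99% and 1.36%). Lipase inhibitors alone lowered none of them (0.428% of all genes) and raised 3 (0.485%), the acyl-CoA synthetase Acsl3 (0.50 ± 0.09), the sterol enzyme Nsdhl (0.51 ± 0.10) and the caveolin Cav1 (0.38 ± 0.07). Interactions were called for 8 genes with ISO (2 higher, 6 lower, beside 14.9% and 16.6% of all genes) and 10 with SR-3420 (6 higher, 4 lower, beside 12.5% and 14.8%). For these further genes, the counts that rest on the low library of Lipase Inh. + SR-3420 were not repeated without it.

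Abhd5, the ATGL co-activator and the target of SR-3420, stood at 187 ± 23.4 CPM in Vehicle and 286 ± 23.2 CPM in ISO (SD, n = 3). It reached 387 ± 23.8 CPM in Lipase Inh. + ISO against 170 ± 5.32 CPM in its control, so its rise was larger with the inhibitors, 1.18 ± 0.08 against 0.62 ± 0.08 on the log2 scale (interaction adjusted p = 0.000729). SR-3420 left it at a log2 difference of 0.16 ± 0.08 (adjusted p = 0.122). Pnpla2, which encodes ATGL, did not pass the test with ISO (0.03 ± 0.07) and fell with SR-3420 by 0.24 ± 0.07 (adjusted p = 0.00548).

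Lipe, which encodes HSL, rose with ISO by 0.62 ± 0.07 (adjusted p = 5.00e-07) and with SR-3420 by 0.77 ± 0.07 (adjusted p = 2.67e-08). The monoglyceride lipase gene Mgll rose with ISO by 0.72 ± 0.09 (adjusted p = 4.98e-07) and fell with ISO under the inhibitors by 0.23 ± 0.09 (adjusted p = 0.0320). Aifm2, also known as FSP1, resembled Fitm2: it rose by 1.08 ± 0.07 with ISO and 1.06 ± 0.07 with ISO under the inhibitors, and its interaction of -0.01 was not called (adjusted p = 0.944).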

How the data were processed

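The authors aligned TruSeq RNA-seq reads to the mouse build mm9 with STAR (version 2.4.2a per the labels), used HOMER and iRNA-seq to count reads over RefSeq genes, and deposited whole-number counts per gene, neither normalised nor filtered. The gene spans and counted lengths beside the counts were used as other columns, for positions, sequence windows and CPM per kb. Use of strand is not given in the sources used here.

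Groups and replicate numbers came from the sample titles. Per the study, the 3 samples of a group are biologically independent experiments. The labels do not say which samples share an experiment. The counts were filtered with filterByExpr of edgeR 4.0.16 (R 4.3.3, minimum count 10, minimum total 15), scaled by TMM and fitted by quasi-likelihood with 1 coefficient for each group, all 18 samples sharing the dispersion estimate. Adjusted p-values are Benjamini-Hochberg values over 12156 genes, and errors of log2 changes are standard errors. Levels are CPM of TMM-scaled libraries. No molecular identifiers are described. The study states that only 1 read was allowed for each position and length, and how many PCR copies remain in these counts was not tested. The genes named are the 10 genes, a further list of droplet genes and, for each of the 10, the genes nearest in pattern, of which the nearest of Plin2 is not reported here. These genes and lists were chosen with earlier results of these data known. The fit was tested on simulated counts. Alternatives were DESeq2 1.42.0, RLE factors, total counts alone, other filters, only the groups compared, a replicate block and leaving out each library. Promoter windows were read from mm9 (NCBIM37).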

Additional observations from a re-analysis of the deposited data

Results flagged for a closer look

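Responses of some of the 10 genes differed with and without lipase inhibitors by the edgeR interaction test, given as the log2 change with inhibitors minus that without. For ISO these were 4 lower and 1 higher (16.6% and 14.9% of all genes), Plin2 (-3.13), Hilpda (-2.66), Plin4 (-1.09), Cidec (-0.54) and Plin3 (0.49). With SR-3420 they were 3 lower and 1 higher (14.8% and 12.5% of all genes), Hilpda (-3.74), Plin2 (-2.09), G0s2 (-0.70) and Bscl2 (0.36). The values for Plin3, G0s2 and Bscl2 lost their call when single libraries were left out, as given beside each of them.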

How the results depend on the processing

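Counts of called genes moved by more than 1.5 times in a few settings. The share of all genes called was computed for the main fit only, so none stands beside these counts. On total counts alone, 2 genes fell with ISO, 3 rose and 5 fell with ISO under the inhibitors, 1 rose with SR-3420 under the inhibitors and 2 had a higher ISO interaction. Without a filter, 6 rose with SR-3420 under the inhibitors and 2 had a higher ISO interaction. DESeq2 called 1 lower with the inhibitors alone, and a fit of only the groups compared called 2 lower with ISO than with SR-3420. Leaving out each library in turn gave 1 to 2 genes lower with ISO, 0 to 1 lower with the inhibitors alone, 1 to 3 lower with ISO under the inhibitors, 3 to 5 higher with SR-3420 under the inhibitors, 0 to 3 with a higher ISO interaction and 0 to 2 with a higher SR-3420 interaction. The counts that rose with ISO or with SR-3420 stayed within 1.5 times in every setting. With ISO this was at the limit, since 4 rose on total counts alone beside 6 in the main fit. Cidec and Bscl2 lost their call there. With SR-3420, 6 rose on total counts alone, beside 7 in the main fit.

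With a replicate block, which takes the replicate number as a term of the fit, 2 genes were lower with the inhibitors alone (Plin5 and Cidec), 7 rose with SR-3420 under the inhibitors (Plin1, Plin4, Plin5 and Cidec added), and 2 had a higher interaction with ISO (Plin5 added) and with SR-3420 (Plin3 added). It also called Plin1 with ISO (0.33, adjusted p = 0.00375), Plin5 with SR-3420 (0.37, adjusted p = 0.0112) and Plin4 with ISO under the inhibitors (-0.31, adjusted p = 0.00133). No call was lost under the replicate block, and the share of all genes that it called was not computed. The numbers share no stated batch: 28 of 45 same-numbered pairs of samples deviated together from their group means with r above 0.1 (range -0.114 to 0.280), and 12 of 18 samples correlated best with their own number, which is a hint from the data and not the design. The mean r was -0.012 for number 1, 0.150 for number 2 and 0.190 for number 3, beside -0.055 for pairs of different numbers. Replicate 3 was the lowest of its group for G0s2 in 6 of 6 groups, and for Plin1, Plin3, Plin4 and Plin5 in 5. It was the lowest in 4 groups for Plin2, Cidec, Hilpda and Bscl2, and in 1 for Fitm2. Replicate 2 was the highest in 5 groups for Plin1, Plin4 and G0s2. The shares of all genes with such orders were not computed.

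Directions turned for values that were not called, and for 1 that was. On total counts alone these were Plin5 (-0.081) and Bscl2 (-0.038, called in the TMM fit) with ISO, and Bscl2 (-0.039) with SR-3420 under the inhibitors. Over the fits that each left out 1 library, Plin3 ranged from -0.15 to 0.062 with the inhibitors alone, from -0.15 to 0.048 with ISO under the inhibitors and from -0.21 to 0.030 with SR-3420 under the inhibitors. Cidec ranged from -0.095 to 0.056 with ISO under the inhibitors. The ISO interaction ranged from -0.51 to 0.0070 for G0s2 and from -0.017 to 0.061 for Fitm2, and the SR-3420 interaction from -0.29 to 0.098 for Plin1 and from -0.16 to 0.039 for Plin4. ISO minus SR-3420 ranged from -0.28 to 0.0024 for Plin2, -0.22 to 0.041 for Plin5, -0.14 to 0.058 for Cidec and -0.38 to 0.14 for Hilpda. The cause was not tested.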
